A study of Mus musculus with 8 samples.

Results

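The genes examined here encode enzymes of glycolysis and a glucose transporter: *Slc2a1*, *Hk2*, *Pfkp*, *Aldoa*, *Tpi1*, *Gapdh*, *Pgk1*, *Eno1*, *Pkm* and *Ldha*. They were chosen by name, as the rows of the count table whose Ensembl identifier maps to these symbols, and make up 10 of the 54838 genes in the table. All 10 passed the filter on low counts, as did 10911 genes overall. This rule uses no measured value, although the 10 genes were chosen with earlier results of these data known. RNA was measured in murine acute myeloid leukemia (AML) cells that carry the RUNX1-RUNX1T1 fusion, on a C57BL/6 background, after transplantation into *Ptprca* recipient mice that the labels describe as irradiated beforehand. The 8 samples form a Vehicle group and an AG636 group, each numbered 1 to 4, and AG636 was dosed by oral gavage b.i.d. at 100 mg/kg for what the study describes as a day of treatment. AG636 inhibits DHODH, an enzyme of de novo pyrimidine synthesis. Both groups carry the fusion and both lived in the same kind of host, and the comparison is of drug with vehicle in 1 established leukemia model. Cells with high cKit were sorted from bone marrow and spleen, and which tissue each sample came from is not stated. The labels do not say whether the samples of a group are separate mice, and the study gives fewer mice per group than there are samples here, so the p-values measure the spread between these samples.

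Glycolysis splits glucose into pyruvate in the cytosol and yields ATP and NADH. Glucose enters through a transporter and is trapped by hexokinase, phosphofructokinase commits it to the pathway, and the enzymes from aldolase to pyruvate kinase carry it to pyruvate. Lactate dehydrogenase then turns pyruvate into lactate and restores NAD+, and the transcription factors HIF-1 and Myc are well-known activators of many of these genes.

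None of the 10 genes passed the test between AG636 and Vehicle (limma-voom, 0 of 10 at an adjusted p of 0.05, against 14.0% of all genes tested, 5.47% higher and 8.49% lower in AG636). edgeR's quasi-likelihood test and DESeq2 also called 0 of 10, and 1 gene, *Ldha*, had an unadjusted limma-voom p under 0.05, against 30.7% of all genes. For none of the 10 did the groups separate without overlap, which 22.2% of all genes did. The log2 fold change was below 0 in 7 of 10 genes (50.6% of all genes) with a median of −0.14, and the median over all genes was −0.0056. The 4 Vehicle samples lay close together for most of the genes, whereas AG636 samples 1 and 2 lay below them for most of the genes and AG636 samples 3 and 4 lay within or above their range. In bulk RNA, less RNA per cell and fewer cells that express the gene cannot be told apart.

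**Figure D1:**
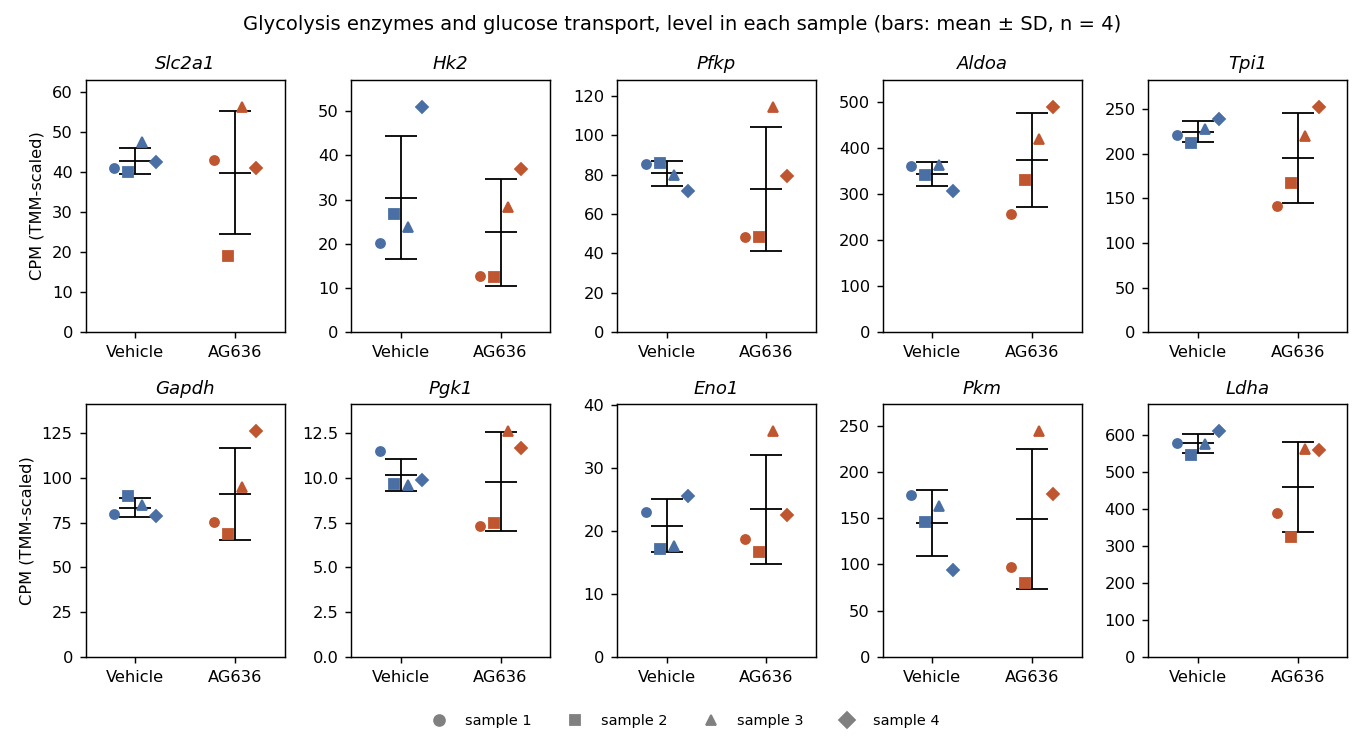
Level of each of the 10 genes in every sample, in CPM, that is counts scaled to the size of each library, for the 4 Vehicle samples (blue) and the 4 AG636 samples (orange), with a marker shape for each sample number and bars for the mean ± SD. The Vehicle points lie close together for 7 genes and spread more for *Hk2*, *Pkm* and *Eno1*, and for each of the 10 genes the SD on the log2 scale was larger in AG636 than in Vehicle, as for *Gapdh*, whose AG636 points run from 68.5 to 126.0 CPM.

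The libraries held between 6120030 and 7162036 counts, and the fewest counts of the 10 genes were those of *Pgk1*, at 47 to 81 per sample. *Kit* was high in every sample (152.6 to 252 CPM) and *Itgam*, which encodes the surface protein CD11b, was at most 0.615 CPM. Markers of leukemic progenitors summed to 1150 to 1354 CPM in Vehicle and 1355 to 1559 CPM in AG636, and 0 of the 8 tested were called by limma-voom, edgeR or DESeq2 (2 at an unadjusted p under 0.05). Of 13 markers of mature myeloid cells 7 passed the filter and 0 were called by any of the 3 tools (1 at an unadjusted p under 0.05), and their summed level was 48.1 to 110 CPM in Vehicle and 18.8, 177, 23.9 and 226 CPM in AG636 samples 1 to 4. Of 12 erythroid markers 11 were found in the count table, and all 11 passed the filter. They had sums of 4056 to 7572 CPM in Vehicle and 6310 to 8082 CPM in AG636. Of these 1, *Hbb-bt*, was called higher by limma-voom, and edgeR and DESeq2 each called 2 higher, *Hbb-bt* and *Slc4a1* (limma-voom adjusted p = 0.0501). B cell markers summed to 15.1 to 38.9 CPM in Vehicle and 24.7 to 109 CPM in AG636, with 1 of the 6 tested called higher. Megakaryocyte markers (*Gp1bb* at 0 in every sample) summed to 12.0 to 18.1 CPM in Vehicle and 35.3, 13.1, 61.0 and 32.1 CPM in AG636 samples 1 to 4, above every Vehicle sample in 3 of the 4. Of the 2 tested, 0 were called by limma-voom (1 at an unadjusted p under 0.05), and edgeR and DESeq2 each called 1, *Pf4*, higher in AG636. Markers of T and NK cells summed to 8.82 to 11.9 CPM in Vehicle and 7.66 to 25.9 CPM in AG636, and those of stroma (*Cxcl12* at 0) to 1.54 to 4.87 and 2.02 to 7.18 CPM, and 0 of these 3 tested were called by any of the 3 tools (0 at an unadjusted p under 0.05). The part of these cells in the results below was not tested.

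HIF-1 is known to bind a core of ACGTG, of which GCGTG is a variant, and Myc an E-box, CACGTG. Whether such letters bear on the levels of these genes was not tested. Before the values, 3 of the promoters are shown, picked because they hold such letters. Each is the 250 bases upstream of a RefSeq transcription start in GRCm38.p6, written 5′ to 3′ on the strand of the gene, and capitals mark matches to the core, its variant or the E-box on either strand. The E-box contains the core in both directions. The *Hk2* window lies at chr6:82774455-82774704 on the minus strand, that of *Pgk1* at chrX:106186850-106187099 on the plus strand and that of *Ldha* at chr7:46845554-46845803 on the plus strand.

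Hk2: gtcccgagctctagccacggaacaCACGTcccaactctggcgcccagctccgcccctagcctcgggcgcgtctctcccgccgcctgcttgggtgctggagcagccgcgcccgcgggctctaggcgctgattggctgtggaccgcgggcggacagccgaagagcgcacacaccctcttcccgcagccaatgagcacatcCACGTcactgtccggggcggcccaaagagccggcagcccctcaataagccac

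Pgk1: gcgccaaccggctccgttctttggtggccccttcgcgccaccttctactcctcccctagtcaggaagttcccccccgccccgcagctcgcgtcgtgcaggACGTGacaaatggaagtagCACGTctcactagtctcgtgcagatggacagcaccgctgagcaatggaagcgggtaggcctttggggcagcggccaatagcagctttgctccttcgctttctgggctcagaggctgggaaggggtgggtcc

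Ldha: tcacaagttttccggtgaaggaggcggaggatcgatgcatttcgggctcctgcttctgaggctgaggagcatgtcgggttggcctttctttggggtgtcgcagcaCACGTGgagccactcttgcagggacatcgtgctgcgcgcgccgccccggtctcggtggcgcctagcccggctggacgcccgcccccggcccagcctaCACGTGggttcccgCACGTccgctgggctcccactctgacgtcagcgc

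*Ldha* held CACGTG at 2 places, and *Hk2* and *Pgk1* each held 2 matches to ACGTG. Over windows that also take in the 50 bases after the start, ACGTG was found on either strand for 7 of the 10 genes, against 21.8% of 27025 genes. These were *Slc2a1*, *Hk2*, *Aldoa*, *Gapdh*, *Pgk1*, *Pkm* and *Ldha*. Some of the 10 genes have several promoters, which gives them more windows for a match. By promoter, ACGTG was found in 8 of 16, against 19.6% of 32851. On the given strand alone it was found for 3 of the 10, against 15.3% of genes. The variant GCGTG was found for 5 of 10 genes against 35.2% of all genes, and CACGTG for *Ldha* alone among the 10, against 8.09% of all genes. *Tpi1* held none of these motifs. These matches describe letters in a window and say nothing of binding in these cells.

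Glucose uptake was represented by *Slc2a1* (ENSMUSG00000028645, chr4:119108711-119137983, plus strand), which encodes the glucose transporter GLUT1. Its level was 41.1, 40.0, 47.5 and 42.4 CPM in Vehicle samples 1 to 4 and 42.9, 19.2, 56.3 and 41.1 CPM in AG636 samples 1 to 4. AG636 sample 2 was the lowest of all samples and AG636 sample 3 the highest, with the other two among the Vehicle samples. Between groups the difference was −0.20 on the log2 scale (SE 0.26, 95% interval −0.76 to 0.37, adjusted p = 0.649). *Slc2a1* held 24.6 to 38.1% of the counts of the class 1 glucose transporters in Vehicle and 27.4 to 47.8% in AG636, and most of the rest came from *Slc2a3*, the high-affinity transporter GLUT3. *Slc2a3* averaged 113.6 ± 31.2 CPM in Vehicle and 81.3 ± 47.9 CPM in AG636 (SD, n = 4 each; log2 fold change −0.60, adjusted p = 0.258).

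*Hk2* (ENSMUSG00000000628, chr6:82725025-82774454, minus strand) encodes hexokinase 2, which phosphorylates glucose on entry. Vehicle samples 1 to 4 had 20.3, 26.7, 23.8 and 51.0 CPM, and AG636 samples 1 to 4 had 12.8, 12.5, 28.2 and 37.0 CPM. Vehicle sample 4 was the highest of the 8, and AG636 samples 1 and 2 lay below every Vehicle sample. The fold change was −0.48 on the log2 scale with a wide interval (SE 0.38, −1.31 to 0.35, adjusted p = 0.423), and it ran from −0.77 without AG636 sample 4 to −0.18 without Vehicle sample 4. *Hk2* was a minor hexokinase transcript here, with 3.83 to 12.8% of the hexokinase counts, and *Hk1*, the ubiquitous isoenzyme, averaged 329 ± 14.7 CPM in Vehicle and 304 ± 32.1 CPM in AG636 (adjusted p = 0.412).

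*Pfkp* (ENSMUSG00000021196, chr13:6579768-6648777, minus strand) encodes the platelet-type phosphofructokinase. Its levels were 85.4, 85.8, 79.8 and 71.8 CPM in Vehicle and 48.5, 48.2, 114.6 and 79.5 CPM in AG636. AG636 samples 1 and 2 were below and AG636 sample 3 above all Vehicle samples, and the log2 fold change was −0.24 (SE 0.24, −0.77 to 0.28, adjusted p = 0.528). *Pfkp* made up 45.4 to 57.1% of phosphofructokinase counts in Vehicle and 36.2 to 66.1% in AG636, beside *Pfkl* and *Pfkm*. *Pitrm1*, on the opposite strand, overlaps it and had 5729 counts against the 4014 of *Pfkp*. Whether strand was used in counting is not stated, so reads of the overlap cannot be assigned with certainty.

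Among the enzymes of the middle of the pathway, *Aldoa* (ENSMUSG00000030695, chr7:126795234-126800751, minus strand) encodes aldolase A, which cleaves fructose 1,6-bisphosphate. It reached 362, 341, 363 and 307 CPM in Vehicle and 256, 329.9, 419 and 490.0 CPM in AG636. AG636 sample 1 lay below and AG636 samples 3 and 4 above every Vehicle sample. The log2 fold change was 0.08 (SE 0.17, −0.29 to 0.46, adjusted p = 0.778). Another identifier with the same symbol held 1 count.

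*Tpi1* (ENSMUSG00000023456, chr6:124810586-124814296, minus strand) encodes triosephosphate isomerase, which interconverts the products of aldolase. Vehicle samples ranged from 211 to 239 CPM, at 221, 211, 227 and 239, and AG636 samples were at 141, 166, 219.9 and 252 CPM. AG636 samples 1 and 2 were below the Vehicle range, AG636 sample 3 within it and AG636 sample 4 above it. Its log2 fold change, −0.24 (SE 0.16, −0.59 to 0.11), had an adjusted p of 0.336.

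*Gapdh* (ENSMUSG00000057666, chr6:125161715-125166467, minus strand) encodes the dehydrogenase that makes NADH in glycolysis and is often taken as a reference gene. It was measured at 80.0, 90.2, 85.0 and 78.7 CPM in Vehicle and at 75.4, 68.5, 94.8 and 126.0 CPM in AG636. The AG636 samples lay on both sides of the Vehicle range, samples 1 and 2 below it and samples 3 and 4 above it, so *Gapdh* varied 1.84-fold between AG636 samples and 1.15-fold between Vehicle samples. On the log2 scale the fold change was 0.09 (SE 0.17, −0.27 to 0.46, adjusted p = 0.750).

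The count of *Gapdh* is uncertain because of its processed pseudogenes. In GENCODE M21, 160 other genes matched its transcript at 90% identity or more over at least 300 bases, and 77 of these had counts, 455 in all, equal to 9.93% of the 4582 counts of *Gapdh*. Of the windows of 75 bases, the read length, in the last 500 bases of its transcript, 84.0% also occurred in the transcript of another gene. How reads that map to several places were handled is not stated, and reads from this 3′ end may have been dropped or shared. Adding the counts of the copies to each of the 10 genes left all 10 uncalled. The copies with at least 10 counts were *3000002C10Rik* (101 counts), *Gm3839* (65), *Gm5069* (18), *Gm10358* (17), *Gm11960* (16), *Gm4335* (12), *Gm5787* (12), *Gm5559* (11) and *Gm9034* (10). *Iffo1*, on the opposite strand, overlaps *Gapdh* as well and had 1819 counts.

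*Pgk1* (ENSMUSG00000062070, chrX:106187100-106203699, plus strand) encodes phosphoglycerate kinase, the first ATP-forming enzyme of the pathway. It had the lowest level of the 10, at 11.5, 9.68, 9.59 and 9.89 CPM in Vehicle and 7.31, 7.50, 12.6 and 11.7 CPM in AG636. AG636 samples 1 and 2 were below and samples 3 and 4 above all Vehicle samples, AG636 sample 4 only just. The log2 fold change was −0.09 (SE 0.21, −0.55 to 0.37, adjusted p = 0.801). The pseudogenes *Pgk1-rs7* and *Gm5537* match its transcript at 100% identity over 1255 and 1252 bases, and each held 0 counts. At its 3′ end 1.88% of the windows were shared with another gene.

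*Eno1* (ENSMUSG00000063524, chr4:150236721-150248879, plus strand) encodes enolase 1, which makes phosphoenolpyruvate. Values were 23.0, 17.1, 17.6 and 25.6 CPM in Vehicle and 18.7, 16.6, 35.7 and 22.5 CPM in AG636, of which only AG636 sample 3 lay clearly outside the Vehicle range. The log2 fold change was 0.12 (SE 0.23, −0.39 to 0.63, adjusted p = 0.766). Of the windows at its 3′ end 62.0% were shared with another gene, and *Eno1b*, a copy with 19 counts in all, is nearly identical to it, so its count is uncertain too.

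*Pkm* (ENSMUSG00000032294, chr9:59656368-59679375, plus strand) encodes the M1 and M2 forms of pyruvate kinase, which counts at the 3′ end do not separate. Vehicle samples had 175, 146, 163 and 93.9 CPM and AG636 samples 96.9, 80.3, 244 and 177 CPM. Vehicle sample 4 fell among the low AG636 samples, and the range over AG636 was 3.04-fold. With a log2 fold change of −0.06 (SE 0.32, −0.76 to 0.65, adjusted p = 0.928) no direction was defined, and the sign turned in edgeR, in DESeq2 and with library size alone. Its share of pyruvate kinase counts, the rest being *Pklr*, the liver and red cell form, was 70.4 to 85.6% in Vehicle and 53.1 to 96.1% in AG636.

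*Ldha* (ENSMUSG00000063229, chr7:46841475-46855627, plus strand) encodes the A subunit of lactate dehydrogenase. It was the most abundant of the 10 in counts of 3′ ends, at 579, 547, 577 and 609 CPM in Vehicle and 389, 323, 561.7 and 560.3 CPM in AG636. AG636 samples 1 and 2 lay below all Vehicle samples, and AG636 samples 3 and 4 lay within the Vehicle range. The means were 578 ± 25.5 CPM in Vehicle and 458 ± 121 CPM in AG636 (SD, n = 4 each). The log2 fold change of −0.37 (SE 0.16, −0.73 to −0.01) had a p of 0.0442 in limma-voom and did not pass after adjustment (adjusted p = 0.151). *Ldha* provided 98.0 to 99.4% of lactate dehydrogenase counts in every sample.

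**Figure D2:**
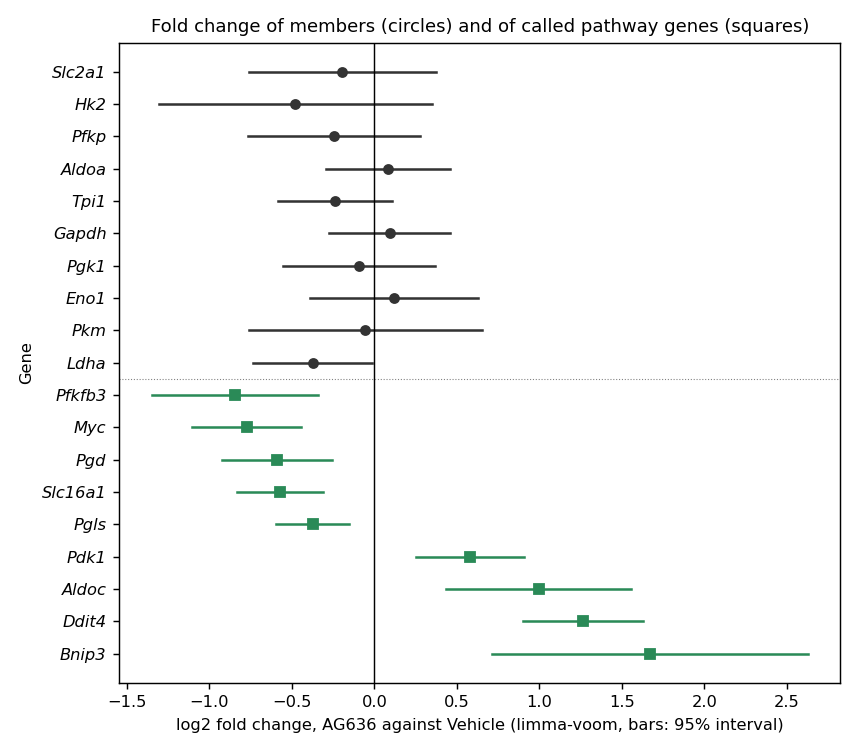
Log2 fold change of AG636 against Vehicle from limma-voom with its 95% interval, for the 10 genes (circles) and for the 9 other genes of the wider pathway lists that passed an adjusted p of 0.05 (squares). The intervals of 9 of the 10 circles include 0 and that of *Ldha* ends at −0.01, whereas those of the squares lie to one side of 0, from *Pfkfb3* at −0.85 to *Bnip3* at 1.67.

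The pattern across samples was shared by most of the 10 genes. AG636 sample 1 was below every Vehicle sample for 7 of 10 genes (33.3% of all genes) and above every Vehicle sample for 0 of 10 (31.5%). AG636 sample 2 was below every Vehicle sample for 9 of 10 genes, all but *Aldoa* (35.5% of all genes), and above for 0 of 10 (34.3%). AG636 sample 3 was below for 0 of 10 (33.0%) and above for 7 of 10 (32.0%), and AG636 sample 4 was below for 0 of 10 (31.3%) and above for 5 of 10 (28.2%).

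Measured against the Vehicle mean of each gene, the median of the 10 genes was −0.50 and −0.58 on the log2 scale in AG636 samples 1 and 2, and 0.30 and 0.19 in AG636 samples 3 and 4. The medians over all genes tested in the same samples were −0.0091, −0.0051, 0.0047 and −0.012. Without *Gapdh* and *Eno1*, whose counts are uncertain, the 4 medians were −0.55, −0.77, 0.30 and 0.19. Summed over the 10 genes, the level was 1515 to 1598 CPM in the Vehicle samples and 1089, 1072, 1787 and 1797 CPM in AG636 samples 1 to 4. As a share of all counts this was 0.146 to 0.156% in Vehicle and 0.112, 0.105, 0.183 and 0.188% in AG636. The AG636 samples thus fell on both sides of a narrow Vehicle range, and no AG636 sum lay within it. *Ldha* and *Aldoa* together held 54.9 to 60.9% of the counts of the 10 genes in each sample, so the sum mostly reflects them. Among the marker lists, the summed mature myeloid markers given above were low in AG636 samples 1 and 3 and high in samples 2 and 4. Of single progenitor markers chosen after their values were seen, *Runx1* was at 224, 191, 348 and 289 CPM and *Gata2* at 369, 266, 461 and 429 CPM in AG636 samples 1 to 4, both lower in samples 1 and 2 than in samples 3 and 4. *Myb* ran the other way, at 681, 717, 453 and 465 CPM. *Kit*, at 204, 214, 252 and 153 CPM, and *Cd34*, at 4.51, 5.11, 35.6 and 4.05 CPM, followed neither order. The summed progenitor markers did not follow it either, at 1487, 1405, 1559 and 1355 CPM in AG636 samples 1 to 4. The part of cell composition in the pattern was not tested.

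**Figure D3:**
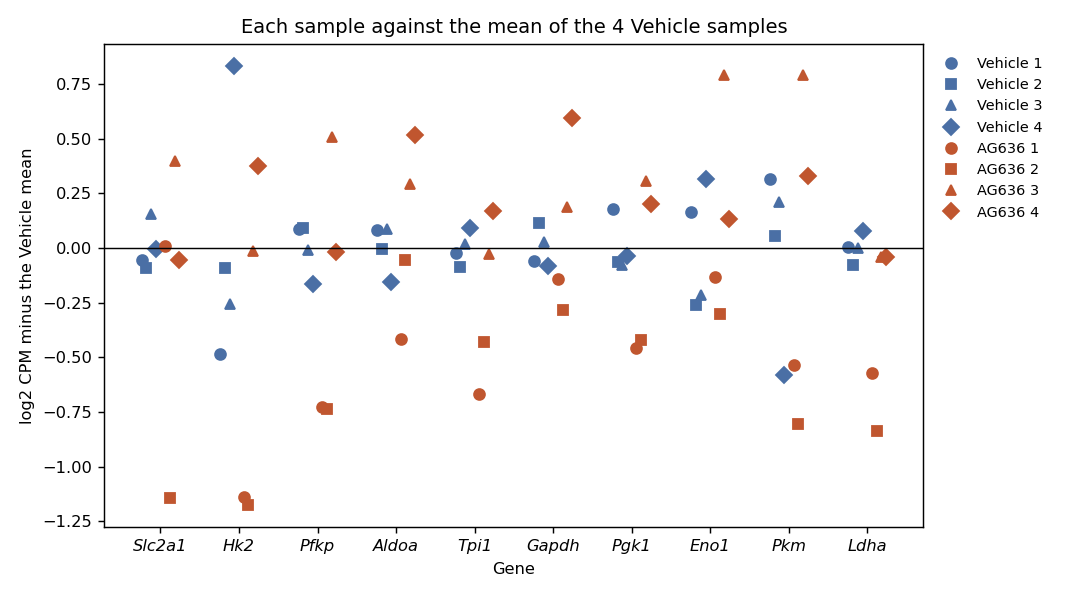
Log2 CPM of each of the 10 genes in every sample minus the mean of the 4 Vehicle samples, with Vehicle in blue and AG636 in orange. AG636 samples 1 (circles) and 2 (squares) lie mostly below 0, down to −1.17 for *Hk2*, and AG636 samples 3 (triangles) and 4 (diamonds) mostly near or above 0, up to 0.79 for *Pkm*.

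The standard deviation of log2 CPM put a number on this spread. Its median over the 10 genes was 0.12 in Vehicle and 0.44 in AG636, against 0.16 and 0.23 over all genes tested. It was larger in AG636 for 10 of 10 genes, which was also so for 70.7% of all genes. Each AG636 value ranked between the 75.9th percentile (*Tpi1*) and the 95.6th percentile (*Hk2*) of all genes. With any 1 AG636 sample left out the median was 0.45 to 0.51 and 9 or 10 of the 10 genes still had the larger value in AG636, and with library size alone as the scaling the median was 0.46. These alternatives were chosen after seeing the data, and no test was made of the difference in spread.

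**Figure D4:**
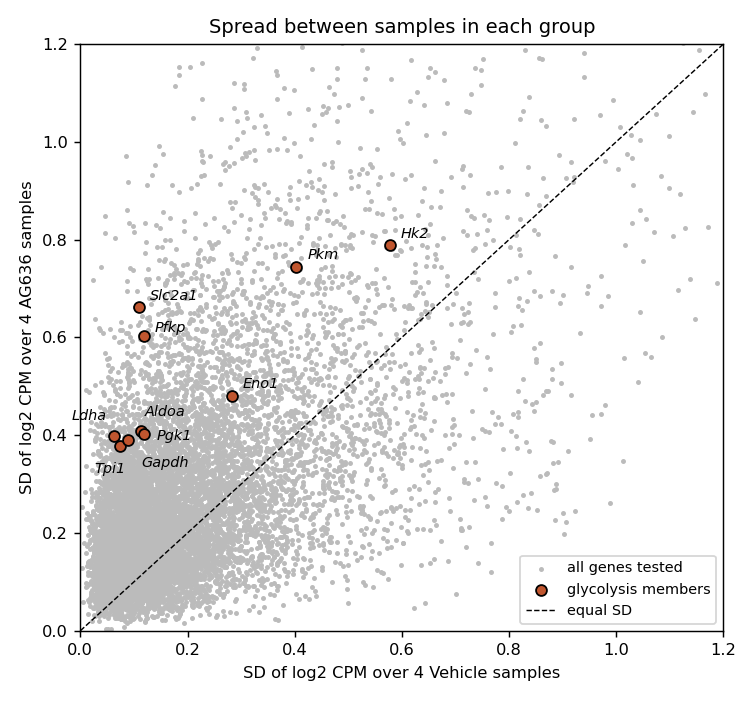
Standard deviation of log2 CPM over the 4 Vehicle samples (horizontal) and the 4 AG636 samples (vertical) for every gene tested (gray) and the 10 genes (orange), with a dashed line where both are equal and axes that end at 1.2, beyond which 145 genes lie. All 10 genes lie above the line, with medians of 0.12 and 0.44.

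The genes whose levels followed the mean profile of the 10 most closely over the 8 samples, among 5254 genes whose log2 CPM averaged 5 or more, were *Socs2* (Pearson r = 0.97), *Dynll2* (r = 0.97) and *Srebf2* (r = 0.97). *Socs2* encodes a suppressor of cytokine signaling, *Dynll2* a dynein light chain and *Srebf2* a regulator of sterol synthesis. *Socs2* had 110, 117, 111 and 117 CPM in Vehicle and 85.8, 67.0, 136 and 127 CPM in AG636, low in samples 1 and 2 and high in samples 3 and 4. The correlations describe 8 libraries that share 1 experiment and were picked as the highest of many.

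To place the 10 genes in their pathway, 98 further genes in 7 lists were examined: other glycolytic enzymes, other sugar and lactate transport, regulators of flux, entry of pyruvate into mitochondria, the pentose phosphate pathway, transcriptional regulators of glycolysis and other hypoxia-inducible genes. Of these 66 passed the filter and 9 were called, 4 higher and 5 lower, or 13.6% against 14.0% of all genes, with a median log2 fold change of −0.06. The share of called genes in the wider pathway was thus close to that of all genes. The same 14.0% is the share to set beside the called genes of each list below. The groups did not overlap for 13 of the 66 (22.2% of all genes), among them all 9 that were called.

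**Figure D5:**
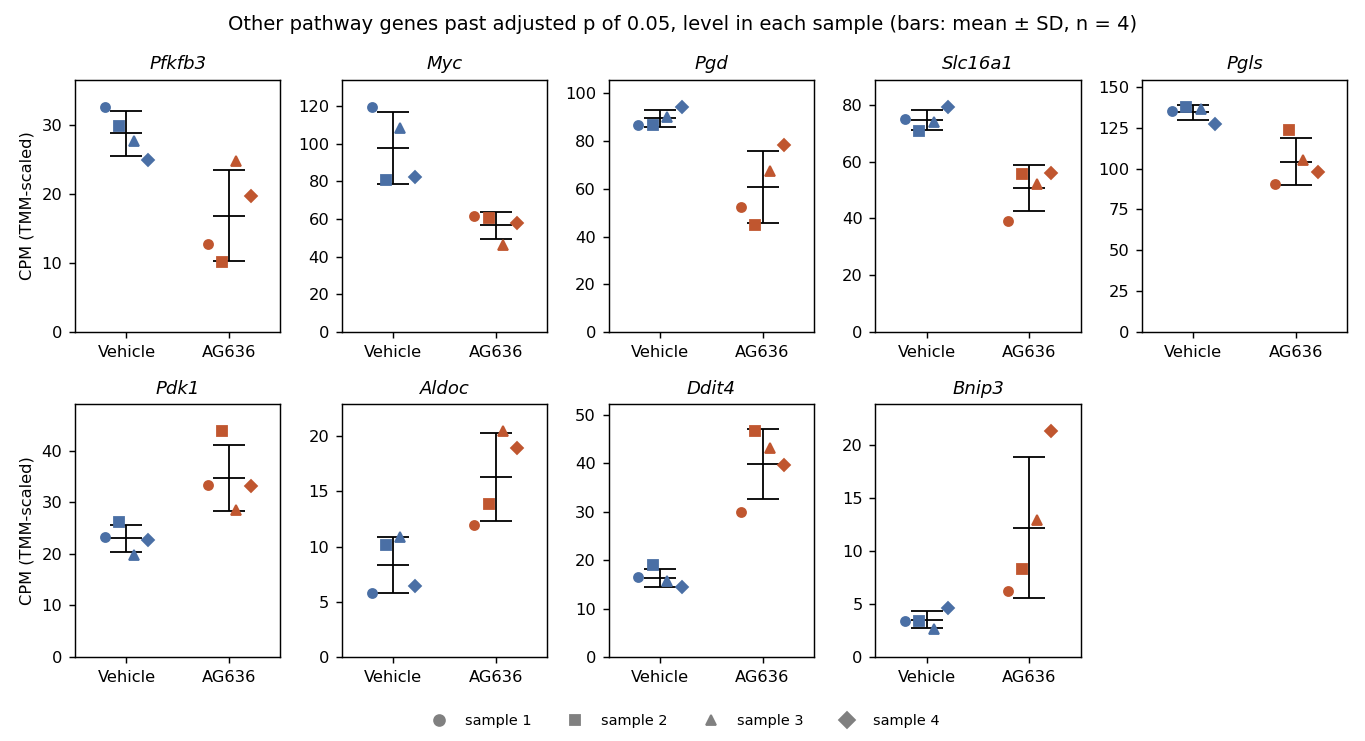
Level in CPM of the 9 called genes of the wider lists in each Vehicle (blue) and AG636 (orange) sample, with bars for the mean ± SD. In every panel the 4 AG636 points lie on one side of the 4 Vehicle points, for *Ddit4* at 30.0 to 46.6 against 14.5 to 18.9 CPM.

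Other glycolytic enzymes numbered 21, of which 12 were tested, and 1 was called higher and 0 lower (median log2 fold change −0.05). The called gene was *Aldoc*, which encodes aldolase C, best known from brain. It had 5.83, 10.1, 10.8 and 6.39 CPM in Vehicle and 12.0, 13.9, 20.4 and 18.9 CPM in AG636 and rose by 0.996 on the log2 scale (SE 0.25, adjusted p = 0.0266). The call was lost without Vehicle sample 1 (adjusted p = 0.0886) or Vehicle sample 4 (adjusted p = 0.0689). *Aldoa* nevertheless supplied nearly all aldolase counts, 97.1 to 98.4% in Vehicle and 95.4 to 96.3% in AG636. *Gpi1*, glucose phosphate isomerase (261 ± 19.1 and 284 ± 39.1 CPM, adjusted p = 0.512), and *Pgam1*, phosphoglycerate mutase (229 ± 22.4 and 218 ± 50.4 CPM, adjusted p = 0.711), complete the steps between the enzymes above and did not pass the test.

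Of 17 genes of other sugar and lactate transport, 7 were tested and 1 was called, lower in AG636 (median −0.16). This was *Slc16a1*, which encodes MCT1, a carrier that moves lactate and pyruvate across the plasma membrane. Its level was 75.03, 70.7, 74.0 and 79.3 CPM in Vehicle and 39.0, 55.7, 52.2 and 55.9 CPM in AG636. All AG636 samples lay below all Vehicle samples, and *Slc16a1* fell by 0.57 on the log2 scale (SE 0.12, adjusted p = 0.0117), a call that held at 0.05 in each of the 20 alternative fits and not at the stricter threshold of 0.01. *Slc16a3*, the lactate exporter MCT4, had 18.1 ± 4.11 CPM in Vehicle and 17.5 ± 8.92 CPM in AG636 (adjusted p = 0.780), and *Bsg*, the chaperone of both carriers, 182 ± 5.64 and 157 ± 28.5 CPM (adjusted p = 0.218). *Gm43581* lies inside *Slc16a1* on the same strand and had 247 counts against 3288.

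The promoter of *Slc16a1* is shown because its transcript was the lactate carrier that passed the test. The 250 bases upstream of its RefSeq start lie at chr3:104638414-104638663 on the plus strand of GRCm38.p6, with the same motifs in capitals.

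Slc16a1: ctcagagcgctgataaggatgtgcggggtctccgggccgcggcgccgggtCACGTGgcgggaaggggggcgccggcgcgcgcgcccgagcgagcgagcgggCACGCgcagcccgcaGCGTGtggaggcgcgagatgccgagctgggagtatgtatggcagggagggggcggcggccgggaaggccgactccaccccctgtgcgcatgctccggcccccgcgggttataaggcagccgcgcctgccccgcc

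It held CACGTG at 1 place, and 8.09% of all genes held it in their promoter windows. Among the other called genes, *Bnip3*, which was higher, and *Pfkfb3*, which was lower, also held CACGTG. *Aldoc*, *Ddit4*, *Pdk1*, *Pgd* and *Pgls* did not hold it. For *Myc*, also a called gene, no promoter window was available. A link between these letters and the changes was not tested.

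Regulators of flux numbered 13, with 9 tested, 1 called higher and 1 called lower (median 0.05). *Pfkfb3* encodes an enzyme that makes fructose 2,6-bisphosphate, the activator of phosphofructokinase, and had 32.6, 29.8, 27.7 and 25.0 CPM in Vehicle and 12.8, 10.2, 24.7 and 19.7 CPM in AG636. It fell by 0.85 on the log2 scale (SE 0.23, adjusted p = 0.0337), and AG636 sample 3 was close to Vehicle sample 4. The call was lost in edgeR (adjusted p = 0.0506) and without Vehicle samples 1, 2 or 3 or AG636 samples 1 or 2 (adjusted p from 0.0680 to 0.0937).

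*Pdk1*, a kinase that inhibits pyruvate dehydrogenase, had 23.3, 26.1, 19.8 and 22.7 CPM in Vehicle and 33.3, 43.7, 28.6 and 33.1 CPM in AG636, and rose by 0.58 on the log2 scale (SE 0.15, adjusted p = 0.0267). Without Vehicle samples 1, 3 or 4 or AG636 sample 1 its adjusted p was 0.0528 to 0.0928. *Pdk2*, a related kinase, had no overlap between groups either (9.06 ± 2.35 and 15.3 ± 4.15 CPM) but missed the threshold in limma-voom (log2 fold change 0.75, adjusted p = 0.0584). DESeq2 called *Pdk2* higher, and edgeR did not call it. *Txnip*, which restrains glucose uptake, was measured at 642 ± 114 CPM in Vehicle and 696 ± 205 CPM in AG636 (adjusted p = 0.790).

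Of 8 genes for entry of pyruvate into mitochondria 7 were tested and 0 were called by limma-voom, edgeR or DESeq2, with 1 at an unadjusted p under 0.05 and a median of −0.10. The smallest p-values belonged to *Pdhx*, a subunit of the pyruvate dehydrogenase complex (52.4 ± 9.81 and 41.1 ± 7.08 CPM, log2 fold change −0.34, adjusted p = 0.162), and *Pdha1*, its E1 alpha subunit (63.2 ± 4.91 and 55.1 ± 6.09 CPM, −0.20, adjusted p = 0.215).

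All 8 genes of the pentose phosphate pathway, which branches from glucose 6-phosphate and yields NADPH and ribose, were tested. Of these 2 were called, both lower (14.0% of all genes were called, 8.49% lower), and the median was −0.14. *Pgd*, which encodes 6-phosphogluconate dehydrogenase, had 86.7, 86.7, 90.2 and 94.3 CPM in Vehicle and 52.3, 44.7, 67.3 and 78.5 CPM in AG636 and fell by 0.59 on the log2 scale (SE 0.15, adjusted p = 0.0276). *Pgls*, the lactonase one step before it, had 135, 138, 137 and 127 CPM in Vehicle and 90.7, 123, 105 and 97.6 CPM in AG636 and fell by 0.37 (SE 0.10, adjusted p = 0.0319). Both calls were sensitive to single samples: *Pgd* was lost without any 1 Vehicle sample or AG636 sample 1 (adjusted p from 0.0606 to 0.0751), and *Pgls* without any 1 Vehicle sample or AG636 samples 1 or 4 (0.0569 to 0.0907). With library size alone the adjusted p-values were 0.0566 and 0.0527. *G6pdx*, the first and rate-limiting enzyme of the branch, had 21.1 ± 1.09 and 22.7 ± 2.45 CPM (adjusted p = 0.617).

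Transcriptional regulators of glycolysis numbered 13, of which 10 were tested and 1 was called (14.0% of all genes were). Of 10 log2 fold changes 9 were below 0 (50.6% of all genes), with a median of −0.16. *Myc* was the called gene, at 119, 80.7, 108 and 82.0 CPM in Vehicle and 61.4, 60.7, 46.1 and 58.1 CPM in AG636. It fell by 0.77 on the log2 scale (SE 0.15, adjusted p = 0.00867) and was called at 0.05 in each of the 20 alternative fits. *Hif1a*, the oxygen-regulated subunit of HIF-1, had 49.4 ± 3.74 and 49.1 ± 8.74 CPM (log2 fold change −0.02, adjusted p = 0.924).

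Among 20 other hypoxia-inducible genes 13 were tested and 2 were called, both higher (14.0% of all genes were called, 5.47% higher). Of 13 log2 fold changes 10 were above 0 (50.6% of all genes lay below 0), with a median of 0.22. *Ddit4*, which encodes an inhibitor of mTORC1, had 16.5, 18.9, 15.8 and 14.5 CPM in Vehicle and 30.0, 46.6, 43.2 and 39.7 CPM in AG636, and rose by 1.27 on the log2 scale (SE 0.16, adjusted p = 0.00214), a call kept at 0.05 in each of the 20 alternative fits. *Bnip3*, a mitophagy receptor, had 3.35, 3.38, 2.63 and 4.56 CPM in Vehicle and 6.22, 8.30, 12.9 and 21.2 CPM in AG636, and rose by 1.67 (SE 0.43, adjusted p = 0.0288). The *Bnip3* call was lost without any 1 Vehicle sample (adjusted p from 0.0534 to 0.0921).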

How the data were processed

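RNA was measured in 4 Vehicle and 4 AG636 samples, grouped by title. The authors deposited raw read counts per gene (54838 Ensembl genes, 115 without a symbol in the name table), made from QuantSeq 3′ libraries. Per the submitters' processing notes, reads were trimmed with cutadapt 1.9.1, mapped to mm10 with HISAT2 2.0.4 and counted with featureCounts of Subread 1.5.0-p3. Use of strand and treatment of reads mapping to several places are not given in the sources used here. A 3′ count depends little on transcript length, and levels were not divided by length.

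From these counts, genes were filtered (filterByExpr, minimum count 10), scaled by TMM and compared with limma's voom method (R 4.3.3, edgeR 4.0.16, limma 3.58.1) in 1 two-sided fit with group as the only term, Benjamini-Hochberg adjusted over 10911 genes, threshold 0.05. CPM are scaled to TMM library sizes, with the SD over 4 samples, and log2 levels use a prior count of 2. The fit was tested on simulated data. Copies were sought by BLAST of transcripts in GENCODE M21. Motifs were searched in RefSeq promoters (GRCm38.p6), which held all 10 genes. Counts of replicates differed by more than sampling noise in all 12 within-group pairs.

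The 10 genes, the 7 pathway lists and the marker lists were chosen with earlier results of these data known. Named by rule are the 10 genes, every called gene of a pathway list or else its 2 smallest p-values, the 3 genes most like the mean profile and copies with at least 10 counts. Other pathway genes were named for their role after their values were seen. Alternatives were DESeq2 1.42.0, limma-trend, the quasi-likelihood test of edgeR, sample quality weights, other scalings and filters, mitochondrial genes left out, copies added, a replicate block, stricter thresholds and samples left out.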

Additional observations from a re-analysis of the deposited data

Results flagged for a closer look

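Of 48 groups of 4 samples examined for a sample far from the others, 1 was marked, where chance alone marks about 2.4. *Pgk1* in Vehicle sample 1 had a log2 CPM of 3.56, and the other 3 Vehicle samples lay between 3.31 and 3.35. This rests on 79 counts against 62 to 65.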

How the results depend on the processing

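The count of 0 among the 10 genes was the same under every alternative run, and 196 of 210 alternative fold changes kept their direction. The 14 that turned were of *Pkm* (7), *Aldoa* (2), *Pgk1* (2), *Slc2a1* (1), *Gapdh* (1) and *Eno1* (1). *Pkm* was at 0.048 in edgeR, 0.067 in DESeq2 and 0.012 with library size alone, and at 0.048, 0.011, 0.10 and 0.19 without Vehicle sample 1, Vehicle sample 3, AG636 sample 1 and AG636 sample 2. *Aldoa* was at −0.017 without Vehicle sample 4 and AG636 sample 3. With 1 sample left out the values ran from −0.34 to 0.19 for *Pkm*, −0.39 to 0.11 (without AG636 sample 2) for *Slc2a1*, −0.044 (without AG636 sample 4) to 0.25 for *Aldoa*, −0.064 (without AG636 sample 4) to 0.21 for *Gapdh*, −0.22 to 0.031 and 0.015 (without AG636 samples 1 and 2) for *Pgk1*, −0.10 (without AG636 sample 3) to 0.26 for *Eno1*, −0.33 to 0.0042 for *Socs2* and −0.31 to 0.033 for *Srebf2* (both without AG636 sample 2). The genes that kept their sign ran from −0.77 to −0.18 (*Hk2*), −0.49 to −0.08 (*Pfkp*), −0.36 to −0.10 (*Tpi1*) and −0.49 to −0.22 (*Ldha*). The calls lost when a sample was left out stand beside each gene, and the cause was not tested.

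Over all genes 1523 were called, 435 at an adjusted p of 0.01, 927 with a change of 0.5 or more on the log2 scale, and 688 (without Vehicle sample 3) to 1706 (without AG636 sample 3) with 1 sample left out. Of the other pathway genes 9 were called, 2 at an adjusted p of 0.01, and 3 (without Vehicle sample 1) to 12 (without AG636 sample 3) with 1 sample left out. Library size alone turned the split of all calls from 597 higher and 926 lower to 918 higher and 571 lower and moved the median log2 fold change from −0.0056 to 0.064.

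The numbers did not pair the samples (same-number correlations −0.14 to 0.203, 2 of 4 over 0.1, 1 of 4 best with its own number). With the replicate number as a block 1446 genes, 0 of the 10 and 9 pathway genes were called, and *Pfkfb3* had an adjusted p of 0.0682. *Pdk1* had 0.0548 with no filter. Leaving out Vehicle sample 4 and AG636 sample 3 together gave *Aldoc* 0.0791, *Pgls* 0.0560 and *Bnip3* 0.0503. *Pgk1* had the fewest counts of the 10 genes, 523 in all.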
